A study of Mus musculus with 16 samples.

Results

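Heat shock proteins are chaperones that hold, fold and refold other proteins in the cytosol and in mitochondria. Some are made at all times, such as Hspa8, and others are made in quantity under stress, such as Hspa1a. In the stress response the transcription factor HSF1 is released from chaperones that are occupied by unfolded protein, and it binds repeats of the letters GAA in the promoters of its targets. Of the 10 genes chosen by name (Hspa1a, Hspa8, Hspa9, Hsp90aa1, Hsp90ab1, Hsph1, Hspd1, Dnaja1, Dnajb1 and Hspb1), 8 were measured among the 22180 genes of the array that had a probe set with a single symbol. The probe set of Dnaja1 carried a second symbol and was left out, and Hsp90ab1 was not analysed here.

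The cells were mouse bone marrow cells from male C57/B6 animals, grown with GM-CSF (20 ng/ml) for 10 days into dendritic cells, and then treated for 24 h. The 4 groups of 4 arrays were cells given IMQ with PA, cells given IMQ, cells given PA, and mock-treated cells. PA is read here as palmitic acid, a saturated fatty acid, given at 0.5 mM bound to albumin (molar ratio 6 to 1). IMQ is read as imiquimod, which activates the endosomal receptor TLR7. Both readings come from knowledge of the study. The labels give the IMQ dose as 3 uM in one place and as 3 ug/ml in another, and are silent on albumin in the mock cultures. They call the replicates biological without naming animals or cultures, so the p-values measure the spread between these arrays, which may be technical. The design asks what each stimulus did alone and whether PA acted differently in the presence of IMQ.

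Values are log2 intensities after RMA. Changes are given on that scale, tested condition minus its comparator, followed by ± the fit's standard error. A gene was called at a limma adjusted p (Benjamini-Hochberg over all 22180 genes) under 0.05. Genes with all 4 group means under 4.93 are termed dim, a level taken from 1409 sensory receptor genes (the 95th percentile of their means). Pearson correlations across genes between arrays of one group lay between 0.994 and 0.996. Inflammatory genes varied widely among the 8 arrays without IMQ, and not by group. The mean log2 value of Il6, Il1b, Cxcl1, Cxcl3, Ptgs2 and Nos2 was 6.22, 6.14, 8.25 and 8.96 in PA replicates 1 to 4 and 8.42, 8.77, 8.63 and 5.69 in mock replicates 1 to 4, against at least 12.10 in every array with IMQ. Of the fixed cell type markers, 5 of 5 measured dendritic cell genes and 5 of 5 macrophage genes lay above the dim level, as did 3 of 6 neutrophil genes, 0 of 4 lymphocyte genes and 0 of 4 mast cell and basophil genes. Of 4 erythroid genes, 1 was measured, just above that level. The mean of the macrophage markers lay between 10.01 and 10.08 with IMQ and PA, 9.84 and 9.92 with IMQ, 10.86 and 10.91 with PA, and 10.84 and 10.91 in mock arrays. Of the macrophage genes, Mrc1, Mertk, Cd68 and Csf1r averaged lower with IMQ than in mock cells, and Adgre1 averaged higher. Mrc1 averaged 7.62 with IMQ and PA, 6.56 with IMQ, 10.23 with PA and 10.18 in mock cells, and Adgre1 averaged 11.24, 11.64, 10.14 and 10.09 in the same order. The dendritic cell marker Itgax averaged 9.30, 9.39, 10.91 and 11.09, and the neutrophil marker S100a8 8.18, 7.92, 6.41 and 6.40, in that order. Other genes of these lists went the other way. Ccr7 of the dendritic cell list averaged 11.46, 11.21, 10.05 and 10.19, and Flt3 and Zbtb46 were also higher with IMQ than in mock cells. The mean of the measured dendritic cell markers lay between 8.96 and 9.04 with IMQ and PA and between 8.94 and 8.98 with IMQ. That mean lay between 8.80 and 8.92 with PA and between 8.88 and 9.03 in mock arrays. S100a9 of the neutrophil list averaged 4.20, 4.42, 4.80 and 5.13. All the markers named here were chosen after their values were seen. The part of these shifts in the changes of the heat shock genes was not tested. In bulk RNA, a change in the share of cells of one type and a change in the RNA per cell cannot be told apart.

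The promoters of the heat shock genes are shown because HSF1 sites are the best known feature of the family and because some of these genes moved together. RefSeq windows (GRCm38.p6) were at hand for Hspa1a, Hsph1, Hspd1, Dnaja1, Dnajb1 and Hspb1, which is 6 of the 10 genes. Pairs of heat shock units (GAANNTTC or TTCNNGAA, both strands) were searched in the 250 bases before each start. The upstream window of Hspa1a (chr17:34972157-34972406, minus strand, 5′ to 3′, with the matching pair in capitals) reads as follows.
Hspa1a: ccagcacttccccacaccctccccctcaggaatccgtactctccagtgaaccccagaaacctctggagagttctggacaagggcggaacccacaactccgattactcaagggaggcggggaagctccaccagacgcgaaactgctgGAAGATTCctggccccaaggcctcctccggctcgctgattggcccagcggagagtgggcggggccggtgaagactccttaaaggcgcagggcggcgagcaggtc

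Stretches of 30 bases around the matches in 3 other members (5′ to 3′ on the strand of the gene, matches in capitals) show how the pairs are arranged in a gene that responded to the combined treatment (Hsph1, chr5:149636351-149636380, minus strand), in one that changed little (Hspd1, chr1:55088053-55088082, minus strand) and in one that stayed dim (Hspb1, chr5:135887801-135887830, plus strand).
Hsph1: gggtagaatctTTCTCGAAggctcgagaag
Hspd1: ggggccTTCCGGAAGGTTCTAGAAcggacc
Hspb1: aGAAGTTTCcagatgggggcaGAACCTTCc

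The first capital stands 104 bases before the start in Hspa1a, 33 in Hsph1, 144 in Hspd1 (at the start nearer the gene body of 2 listed) and 117 in Hspb1. A pair was present before a start of 5 of the 6 genes, Dnajb1 being the exception, against 14.5% of the 27025 genes with a window. A run of 3 units in register (a pair with 1 further unit at the same spacing, so that it includes pairs already counted) was found upstream of Hspd1, against 0.514% of all genes. In Hspd1 the run holds overlapping matches, and the same bases lie in the upstream window of Hspe1, which encodes the small co-chaperonin of Hspd1 and is transcribed the other way. Hsph1 had such a run 37 bases after its start (TTCTGGAAAGTTC, chr5:149636288-149636300), found when the window was extended past the start, where 0.662% of all genes have one. That extension was chosen after the sequences were seen. The ER stress element (CCAAT and CCACG, 9 bases apart, both strands) was found upstream of 0 of the 6 genes, against 0.130% of all genes. These matches describe letters in a window and do not show binding.

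The group means of Hspa1a, Hsph1, Hsp90aa1, Dnajb1, Hspd1 and Hspa8 were highest with IMQ and PA. Those of Hspa9 and of Hspb1, which was dim, were highest with IMQ. Hspa1a and Hsph1 rose strongly when PA was added to IMQ, Hsp90aa1, Dnajb1 and Hspd1 rose by small amounts, and Hspa8, Hspa9 and Hspb1 did not pass the test. Of the 8 measured genes, 5 were called higher and 0 lower with PA on top of IMQ, against 21.1% of all genes called, 11.6% higher and 9.44% lower. The median log2 change was 0.16 over the 8 genes and -0.02 over all genes.

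Hspa1a encodes the classical inducible member of the Hsp70 family, which binds exposed hydrophobic stretches of unfolded proteins. Hspa1a read 8.87, 8.75, 8.85 and 9.04 with IMQ and PA, 7.60, 7.25, 7.32 and 7.18 with IMQ, 6.52, 6.09, 6.13 and 6.48 with PA, and 6.48, 5.92, 6.42 and 6.01 in mock cells. The 4 arrays with both stimuli lay above all others and the IMQ arrays lay above those without IMQ, while the PA and mock arrays overlapped. With PA added to IMQ, Hspa1a rose 2.91-fold (log2 change 1.54 ± 0.14, limma adjusted p = 4.79e-07). IMQ alone raised it 2.19-fold over mock (1.13 ± 0.14, adjusted p = 5.15e-06), and IMQ in PA-loaded cells raised it 5.94-fold over PA (2.57 ± 0.14, adjusted p = 2.42e-10). PA alone gave 0.10 ± 0.14 (adjusted p = 0.801), with a 95% interval from -0.19 to 0.39. The 2 groups without IMQ spread more (SD 0.23 with PA and 0.28 in mock cells) than those with it (0.12 with IMQ and PA and 0.18 with IMQ). The mock arrays with the highest and the lowest inflammatory mean, replicates 2 and 4, read 5.92 and 6.01.

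Hsph1, a large Hsp110 chaperone that recharges Hsp70 with nucleotide, had the same order of groups. It read 9.88, 9.70, 9.89 and 9.90 with IMQ and PA, 8.56, 8.50, 8.55 and 8.45 with IMQ, 8.17, 8.07, 8.15 and 8.21 with PA, and 8.06, 7.89, 8.05 and 8.04 in mock cells. The groups formed 4 steps without overlap, of which the lowest, between PA and mock cells, was not called (0.14 ± 0.06, adjusted p = 0.269). PA added to IMQ raised Hsph1 2.51-fold (1.33 ± 0.06, adjusted p = 1.53e-10), and IMQ alone raised it 1.42-fold over mock (0.50 ± 0.06, adjusted p = 2.20e-06). In PA-loaded cells IMQ raised it 3.23-fold over PA (1.69 ± 0.06, adjusted p = 1.04e-12).

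**Figure D1:**
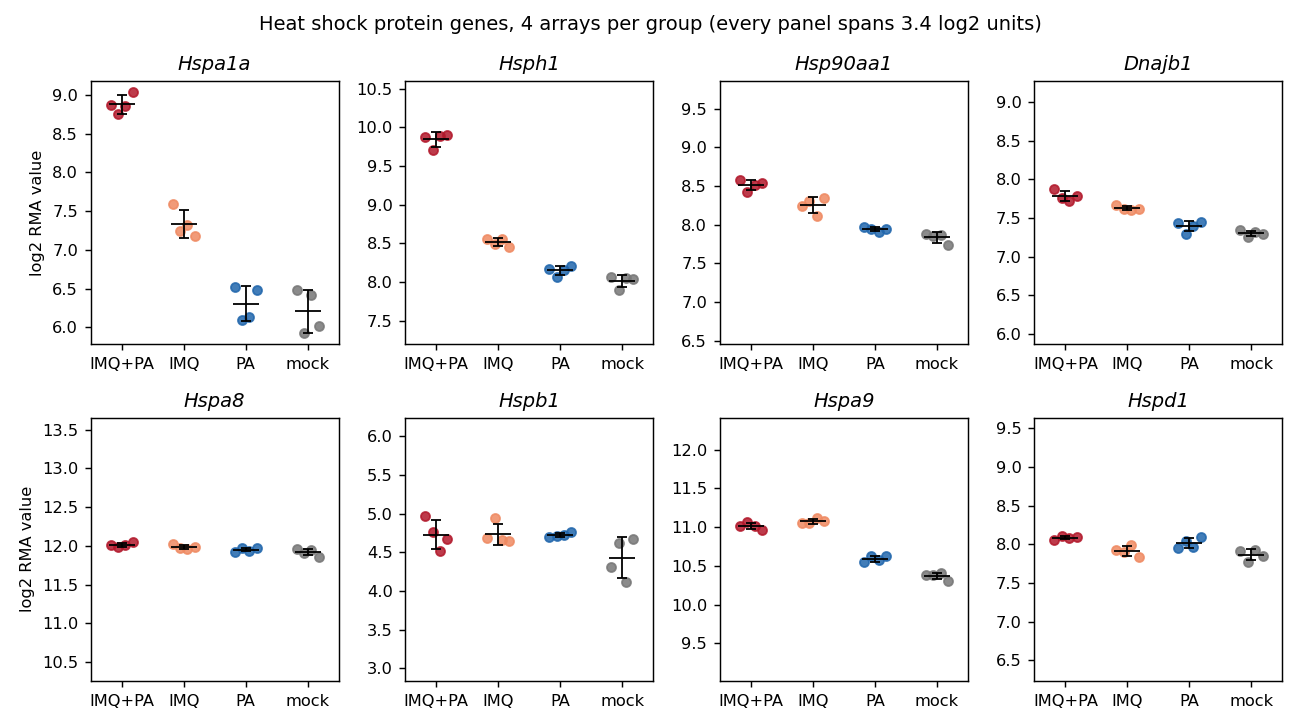
Log2 RMA values of the 8 measured heat shock genes. Each point is 1 array, bars give the mean and SD of 4 arrays, groups run from IMQ with PA on the left to mock on the right, and every panel spans the same range of log2 units. Hspa1a and Hsph1 stand highest with IMQ and PA, Hspa9 is high in both groups with IMQ, and Hspa8 differs by at most 0.10 between group means.

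The change with PA differed between cells with and without IMQ in 3 of the 8 genes. The interaction, which is the change with PA in IMQ-treated cells minus the change with PA in cells without IMQ, was 1.44 ± 0.19 for Hspa1a (adjusted p = 8.73e-05) and 1.19 ± 0.08 for Hsph1 (adjusted p = 7.64e-08). It was -0.29 ± 0.06 for Hspa9 (adjusted p = 0.00328). Among all genes 13.6% had a called interaction, 6.58% positive and 7.01% negative. For Hsp90aa1 (0.15 ± 0.08, 95% interval -0.02 to 0.32) and Dnajb1 (0.07 ± 0.07, 95% interval -0.07 to 0.21) no difference was shown.

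Hsp90aa1, the inducible form of the cytosolic Hsp90 that matures kinases and receptors, read 8.57, 8.42, 8.52 and 8.54 with IMQ and PA, 8.24, 8.30, 8.12 and 8.35 with IMQ, 7.97, 7.94, 7.91 and 7.95 with PA, and 7.88, 7.85, 7.87 and 7.74 in mock cells. No array of one group reached into another, and the steps were small. IMQ raised it by 0.42 ± 0.06 over mock (adjusted p = 1.45e-05), and PA added to IMQ raised it by 0.26 ± 0.06 (adjusted p = 0.00270). IMQ in PA-loaded cells raised it by 0.57 ± 0.06 over PA (adjusted p = 3.83e-07). PA alone gave 0.11 ± 0.06 (adjusted p = 0.393).

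Dnajb1, a J-domain co-chaperone that brings substrates to Hsp70, read 7.88, 7.76, 7.72 and 7.78 with IMQ and PA, 7.66, 7.61, 7.60 and 7.62 with IMQ, 7.43, 7.30, 7.39 and 7.45 with PA, and 7.34, 7.26, 7.32 and 7.30 in mock cells. Arrays with IMQ lay above arrays without it, and PA and mock arrays overlapped. IMQ raised Dnajb1 by 0.32 ± 0.05 over mock (adjusted p = 3.69e-05), and in PA-loaded cells by 0.39 ± 0.05 over PA (adjusted p = 3.55e-06). The rise of 0.16 ± 0.05 with PA on top of IMQ (adjusted p = 0.0209) lost its call when quantile normalization was repeated (0.11, adjusted p = 0.119), when IMQ replicate 2 (0.16, adjusted p = 0.0512) or IMQ and PA replicate 1 (0.13, adjusted p = 0.0722) was left out, and when the groups compared were fitted alone (adjusted p = 0.0669). It was also lost in a reduced fit that left out mock replicates 1 to 3 and PA replicates 3 and 4 (0.16, adjusted p = 0.0620). The reduced fit keeps 1 mock and 2 PA arrays, assumes that the lone mock array varies like the other groups, and has fewer arrays to pass the test with, so its changes are given beside its p-values.

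Hspa8, the Hsp70 that cells make without stress, moved little. It read 12.02, 11.98, 12.01 and 12.05 with IMQ and PA, 12.02, 11.97, 11.96 and 11.98 with IMQ, 11.93, 11.97, 11.94 and 11.97 with PA, and 11.96, 11.91, 11.94 and 11.86 in mock cells. The highest and lowest group means were 0.10 apart, and no contrast was called. With a variance trend and robust moderation the same changes were called for IMQ over mock (0.07, adjusted p = 0.0210) and for IMQ with PA over PA (0.07, adjusted p = 0.0254). The other 3 probe sets of Hspa8 with a single symbol gave changes of -0.31 to -0.10 for PA minus mock and -0.19 to -0.16 for IMQ minus mock, against 0.03 and 0.07 for the one used, so the sign of its small changes depends on the probe set.

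Hspb1, a small heat shock protein that keeps unfolding proteins soluble, was dim in all groups. Its 4 arrays ranged from 4.52 to 4.97 with IMQ and PA, 4.65 to 4.94 with IMQ, 4.70 to 4.77 with PA, and 4.11 to 4.67 in mock cells. These ranges lie at the level of sensory receptor genes, and limma called 0 of its 5 contrasts (2 had an unadjusted p under 0.05). IMQ gave 0.31 ± 0.12 over mock (adjusted p = 0.0548), which became a call in 6 alternatives, among them without mock replicate 4 (0.39, adjusted p = 0.0200) or 2 (0.37, adjusted p = 0.0279) and without IMQ and PA replicate 1 (adjusted p = 0.0425) or 3 (adjusted p = 0.0470). Its other probe set, also dim, gave changes of the opposite sign for PA (-0.27) and IMQ (-0.26) against mock.

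The 2 mitochondrial members differed in their change with IMQ over mock, 0.71 for Hspa9 and 0.05 for Hspd1. Each also had a call with PA, Hspa9 in cells without IMQ and Hspd1 in cells with it. Hspa9, the Hsp70 of the mitochondrial matrix that pulls imported proteins through the inner membrane, rose with IMQ, and its change with PA on top of IMQ was not called. It read 11.01, 11.06, 11.02 and 10.96 with IMQ and PA, 11.05, 11.06, 11.12 and 11.08 with IMQ, 10.55, 10.62, 10.57 and 10.62 with PA, and 10.38, 10.39, 10.41 and 10.31 in mock cells. Both groups with IMQ lay above both without it, and they overlapped each other. IMQ raised Hspa9 by 0.71 ± 0.04 over mock (1.63-fold, adjusted p = 7.81e-10) and by 0.42 ± 0.04 over PA in PA-loaded cells (1.34-fold, adjusted p = 3.82e-07). PA on top of IMQ gave -0.06 ± 0.04 (adjusted p = 0.326).

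PA alone raised Hspa9 by 0.22 ± 0.04 over mock (1.17-fold, adjusted p = 0.0120), the 1 call among the 8 genes in that comparison, against 1.49% of all genes called, 1.05% higher and 0.442% lower. The call was lost when the 8 arrays without IMQ were fitted alone (0.22, adjusted p = 0.0995), when their inflammatory mean was added as a covariate (0.23, adjusted p = 0.114), and in the reduced fit (0.28, adjusted p = 0.407). Fitting the 8 arrays alone leaves the difference of group means as it was. The reduced fit keeps only mock replicate 4, the lowest mock array for Hspa9 (10.31). The size of the change in these 2 fits is therefore no check on the lost call. The interaction of Hspa9 was -0.34 in the reduced fit (adjusted p = 0.0659). With PA alone the arrays of 5 of the 8 genes lay above the mock arrays without overlap, against 9.92% of all genes that did not overlap in either direction. The 8 log2 changes lay between 0.03 and 0.30. The highest was that of Hspb1, 1 of these 5, which was dim and whose other probe set gave -0.27. The lowest was that of Hspa8, whose other probe sets gave -0.31 to -0.10.

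Hspd1, the ring-forming chaperonin of the matrix, read 8.06, 8.10, 8.08 and 8.09 with IMQ and PA, 7.93, 7.90, 7.99 and 7.84 with IMQ, 7.95, 8.04, 7.97 and 8.09 with PA, and 7.92, 7.77, 7.93 and 7.85 in mock cells. Both groups with PA read higher than their counterparts without it. The change with PA was 0.17 ± 0.05 in IMQ-treated cells (adjusted p = 0.0244) and 0.15 ± 0.05 without IMQ (adjusted p = 0.186), and the interaction was 0.02 ± 0.07 (95% interval -0.13 to 0.17). The call with IMQ was lost when the 2 groups were fitted alone (adjusted p = 0.0526) and when any 1 of 5 arrays was left out: IMQ replicate 2 (0.16, adjusted p = 0.0581) or 4 (0.14, adjusted p = 0.0805), or IMQ and PA replicate 2 (0.16, adjusted p = 0.0582), 3 (0.17, adjusted p = 0.0509) or 4 (0.17, adjusted p = 0.0506). IMQ gave 0.05 ± 0.05 over mock (adjusted p = 0.501).

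**Figure D2:**
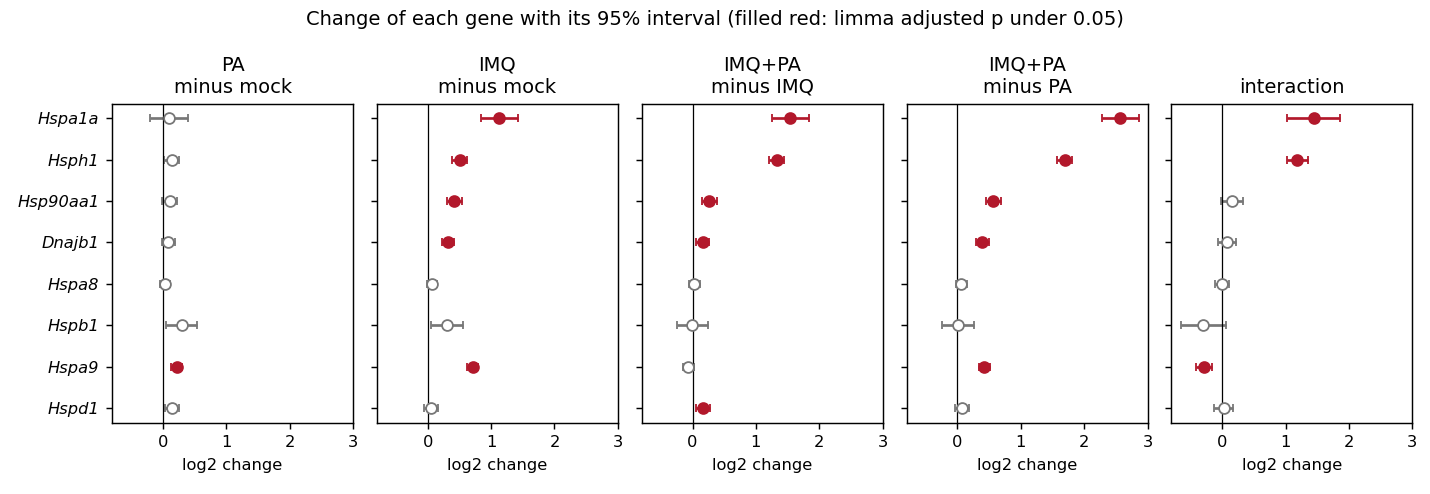
Log2 change of each measured gene in the 5 contrasts, with its 95% interval from limma. Filled red points passed an adjusted p under 0.05; Hspa1a and Hsph1 have positive interactions (1.44 and 1.19) and Hspa9 a negative one (-0.29).

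Set beside all genes, 5 of the 8 rose with IMQ over mock and 0 fell, where 34.8% of all genes were called (17.0% rose and 17.9% fell), and the arrays of 6 of the 8 did not overlap, against 34.2% of all genes. For IMQ in PA-loaded cells over PA, 5 rose and 0 fell, where 35.3% of all genes were called (16.8% rose and 18.5% fell), and again 6 of the 8 did not overlap, against 35.7% of all genes. For PA on top of IMQ, 5 of the 8 did not overlap, against 23.5%. The 5 that rose were Hspa1a, Hsph1, Hsp90aa1, Dnajb1 and Hspa9 for IMQ over mock and for IMQ with PA over PA. These contrasts share no arrays, but both use the spread estimated from all 16 arrays. For PA on top of IMQ, Hspd1 was called and Hspa9 was not. The median log2 change of the 8 genes was 0.37 for IMQ over mock, 0.41 for IMQ with PA over PA and 0.12 for PA over mock, where the median of all genes was 0.01, 0.00 and 0.01.

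The partners of these chaperones came from lists of other family members. Of the cytosolic partner list, which holds further Hsp70 and J-domain genes and the co-chaperones of Hsp70 and Hsp90, 27 of 28 genes were measured, 2 of them dim. With PA on top of IMQ, 8 of the 27 rose and 0 fell, where 11.6% of all genes rose and 9.44% fell. Hspa1b, the near-identical neighbour of Hspa1a, read 8.45 ± 0.11 with IMQ and PA, 6.75 ± 0.13 with IMQ, 6.05 ± 0.27 with PA and 6.09 ± 0.19 in mock cells (mean and SD, n = 4), and its rise over IMQ was 1.70 ± 0.12. Hspa1a and Hspa1b differ in 3 of the 250 bases before their starts, and their transcripts are so alike that the probes of one may also report the other. Hspa4l, an Hsp110 relative of Hsph1, rose by 0.58 ± 0.05 over IMQ, and Dnajb2, a J-domain protein, by 0.52 ± 0.06.

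The interaction was called positive for 5 of the 27 partners and negative for 0, against 6.58% and 7.01% of all genes. The largest were those of Hspa1b (1.74 ± 0.17, adjusted p = 3.76e-06), Hspa4l (0.48 ± 0.07) and the J-domain gene Dnaja2 (0.33 ± 0.06). Dnaja2 was not called in the reduced fit (0.28, adjusted p = 0.153). With IMQ over mock 9 of the 27 partners rose and 2 fell, 11 in all, not far above the 34.8% of all genes called. The rises were led by Stip1, which links Hsp70 to Hsp90 (0.76 ± 0.04), Dnajb6, which keeps aggregation-prone proteins soluble (0.71 ± 0.05), and Hspa4l (0.68 ± 0.05). Bag3, a co-chaperone that steers Hsp70 clients to autophagy and is itself induced by HSF1, fell by 0.57 ± 0.06 on the log2 scale. In PA-loaded cells IMQ raised 12 partners and lowered 2, where 16.8% of all genes rose and 18.5% fell. Hspa1b (2.40 ± 0.12), Hspa4l (1.16 ± 0.05) and Dnajb2 (0.97 ± 0.06) were higher and Bag3 was lower (-0.51 ± 0.06). With PA alone limma called 0 of the 27 (3 had an unadjusted p under 0.05), against 1.49% of all genes, and the changes lay between -0.15 and 0.21.

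Heat shock factors were represented by 3 measured genes of 4. Hsf2, a factor that pairs with HSF1 on its sites, rose with IMQ over mock (0.83 ± 0.06) and with IMQ and PA over PA (0.92 ± 0.06). Hsbp1, a small protein that binds heat shock factors, fell by 0.22 ± 0.05 with IMQ and by 0.20 ± 0.05 with IMQ and PA over PA, the second call being lost in the reduced fit (-0.15, adjusted p = 0.129). With PA on top of IMQ, 0 of the 3 were called by limma, against 21.1% of all genes. The count was also 0 at an unadjusted p under 0.05, with changes from -0.12 to 0.09. Hsf1 was not analysed here.

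The cytosolic chaperonin CCT is an 8-subunit ring that folds actin and tubulin. IMQ raised 6 of its 8 subunit genes over mock, where 17.0% of all genes rose and 17.9% fell. Cct3 (1.24 ± 0.06), Cct7 (0.45 ± 0.06) and Cct6a (0.35 ± 0.05) rose most. PA on top of IMQ raised 0 and lowered 3, where 11.6% of all genes rose and 9.44% fell. The 3 were Cct4 (-0.36 ± 0.04), Tcp1 (-0.23 ± 0.04) and Cct2 (-0.20 ± 0.05). Of those not called, Cct3 (0.10) and Cct7 (0.08) changed upward and Cct5 (-0.09), Cct6a (-0.12) and Cct8 (-0.04) downward. The interaction was called negative for the same 3 genes, against 7.01% of all genes, at -0.42 ± 0.06 for Cct4, -0.31 ± 0.07 for Cct2 and -0.27 ± 0.06 for Tcp1. When all probe sets of Tcp1 were averaged its change was -0.04 (adjusted p = 0.716) and its interaction 0.03 (adjusted p = 0.891), and in the reduced fit the interactions of Cct2 (-0.24, adjusted p = 0.216) and Tcp1 (-0.35, adjusted p = 0.0614) were not called. In PA-loaded cells IMQ raised Cct3 (1.24 ± 0.06) and Cct7 (0.49 ± 0.06), where 16.8% of all genes rose. It lowered 2 subunits, where 18.5% of all genes fell, with Cct4 the lower (-0.31 ± 0.04). With PA alone limma called 0 of the 8, against 1.49% of all genes, and 2 of the 8 had an unadjusted p under 0.05.

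Among mitochondrial chaperones and proteases other than Hspa9 and Hspd1, 14 of 15 were measured. IMQ raised 6 of the 14 over mock and lowered 1, where 17.0% of all genes rose and 17.9% fell. Atf5, a transcription factor of the mitochondrial unfolded protein response, rose by 0.86 ± 0.08, the matrix protease Lonp1 by 0.64 ± 0.05 and the inner membrane protease Yme1l1 by 0.38 ± 0.05, while Trap1, the Hsp90 of mitochondria, fell by 0.28 ± 0.06 (-0.23 in the reduced fit, adjusted p = 0.124). PA on top of IMQ raised 6 and lowered 2, where 11.6% of all genes rose and 9.44% fell. The nucleotide exchange factors of Hspa9, Grpel2 (0.49 ± 0.07) and Grpel1 (0.31 ± 0.06), and the protease subunit Afg3l2 (0.29 ± 0.04) rose, and Atf5 fell by 0.51 ± 0.08 on the log2 scale.

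The interaction in the mitochondrial list was called positive for 2 of 14 genes and negative for 2, against 6.58% and 7.01% of all genes. It was positive for Grpel2 (0.41 ± 0.10) and Afg3l2 (0.21 ± 0.06), and of the 2 negative genes Atf5 was the lower (-0.63 ± 0.11). Afg3l2 lost this call with the array medians set equal (0.20, adjusted p = 0.0751), without IMQ and PA replicate 2 (0.19, adjusted p = 0.0503) and in the reduced fit (0.15, adjusted p = 0.454). The interaction of Atf5 was -0.66 in the reduced fit (adjusted p = 0.0706). In PA-loaded cells IMQ raised 8 and lowered 3, where 16.8% of all genes rose and 18.5% fell. Lonp1 (0.65 ± 0.05), Afg3l2 (0.58 ± 0.04) and the protease subunit Clpp (0.45 ± 0.07) led, with Trap1 lower (-0.45 ± 0.06). With PA alone 1 gene was called, Lonp1 (0.26 ± 0.05, adjusted p = 0.0196), against 1.49% of all genes. That call was lost without mock replicate 1 or 2 or PA replicate 1 or 4, when the 8 arrays without IMQ were fitted alone (0.26, adjusted p = 0.0897), with the inflammatory covariate (0.26, adjusted p = 0.135) and in the reduced fit (0.17, adjusted p = 0.753). With 1 array left out its change lay between 0.23 and 0.28. Hspe1, which shares its upstream region with Hspd1, was not called in any contrast, at changes from -0.14 to 0.13.

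The ER counterparts of these chaperones are given for comparison. With PA on top of IMQ 9 of 9 rose, where 11.6% of all genes rose, and the median change of the 9 was 0.85. Sdf2l1, a partner of an ER J-domain protein (1.82 ± 0.06), led. Hspa5, the ER Hsp70 known as BiP (1.25 ± 0.06), and Hyou1, the ER relative of Hsph1 (1.15 ± 0.05), followed. The interaction was called positive in 8 of 9, against 6.58% of all genes. IMQ alone raised 4 and lowered 3 of the 9, where 17.0% of all genes rose and 17.9% fell. Dnajb9, an ER J-domain protein, was higher (0.55 ± 0.06) and Sdf2l1 lower (-0.95 ± 0.06). Hspa5 (0.21 ± 0.06) and Hyou1 (0.18 ± 0.05) also rose with IMQ, and in the reduced fit they were 0.24 (adjusted p = 0.130) and 0.16 (adjusted p = 0.219). The call of Hspa5 was also lost with repeated quantile normalization (0.16, adjusted p = 0.0571). In PA-loaded cells IMQ raised 8 of the 9, led by Hspa5 (1.26 ± 0.06), where 16.8% of all genes rose. PA alone raised 2, Dnajb9 (0.40 ± 0.06) and Hyou1 (0.25 ± 0.05), where 1.05% of all genes rose. With the inflammatory covariate they were 0.39 (adjusted p = 0.0756) and 0.26 (adjusted p = 0.105), of the same size but not called. In the reduced fit they were 0.29 (adjusted p = 0.493) and 0.18 (adjusted p = 0.718). Hyou1 also lost its call without PA replicate 4 (0.22, adjusted p = 0.0529) and with the 8 arrays without IMQ alone (0.25, adjusted p = 0.0776). In the plot of changes with PA, Hspa1a, Hspa1b and Hsph1 stand high on the vertical axis, near the ER genes with the largest changes. The ER genes were spread from 0.19 (Canx) to 1.82 (Sdf2l1) on that axis.

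**Figure D3:**
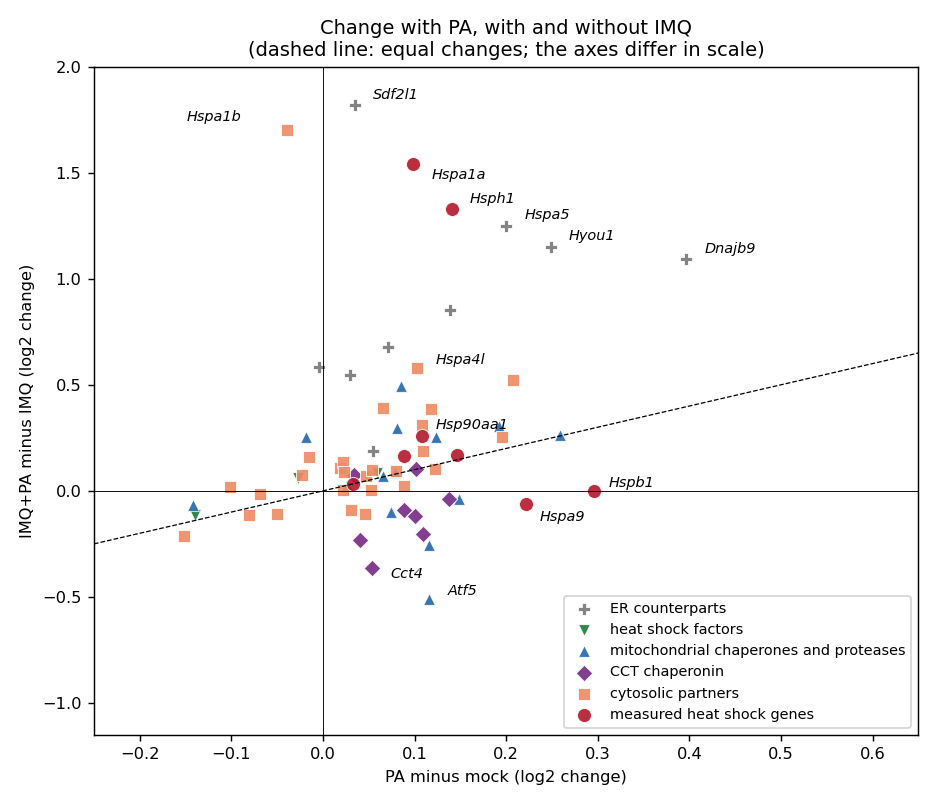
Log2 change with PA in IMQ-treated cells (vertical axis) against the log2 change with PA in cells without IMQ (horizontal axis), 1 point per gene, coloured and shaped by list, with a dashed line where the changes are equal. Hspa1a (1.54), Hsph1 (1.33) and Hspa1b (1.70) lie far above the line, as do some ER counterparts. The ER counterparts are spread from 0.19 to 1.82 on the vertical axis. Hspa9 (-0.06), Cct4 (-0.36) and Atf5 (-0.51) lie below the line.

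Hspa1a had the widest range of group means among the 8 genes (2.67), ahead of Hsph1 (1.83), and the other 6 ranged by 0.10 to 0.71. Over the 16 arrays, the 5 named genes whose log2 values were most like those of Hspa1a by Pearson correlation were Rdh11 (0.990), Pitpnc1 (0.990), Map4k4 (0.989), Ampd3 (0.987) and Arap2 (0.986). These values are descriptions over arrays that share 4 treatments, and most of each comes from the differences between groups. Rdh11 had group means of 10.60 with IMQ and PA, 9.44 with IMQ, 8.62 with PA and 8.36 in mock cells. Among the heat shock genes, Hsph1 (0.977), Dnajb1 (0.951) and Hsp90aa1 (0.949) were closest to Hspa1a, and Hspb1 (0.279) was the least like it. For deviations from the group means over the same 16 arrays, the correlation with Hspa1a was 0.703 for Hsph1, 0.606 for Dnajb1 and 0.581 for Hspa8. It was 0.512 for Hspd1, 0.236 for Hsp90aa1, -0.084 for Hspa9 and -0.503 for Hspb1.

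**Figure D4:**
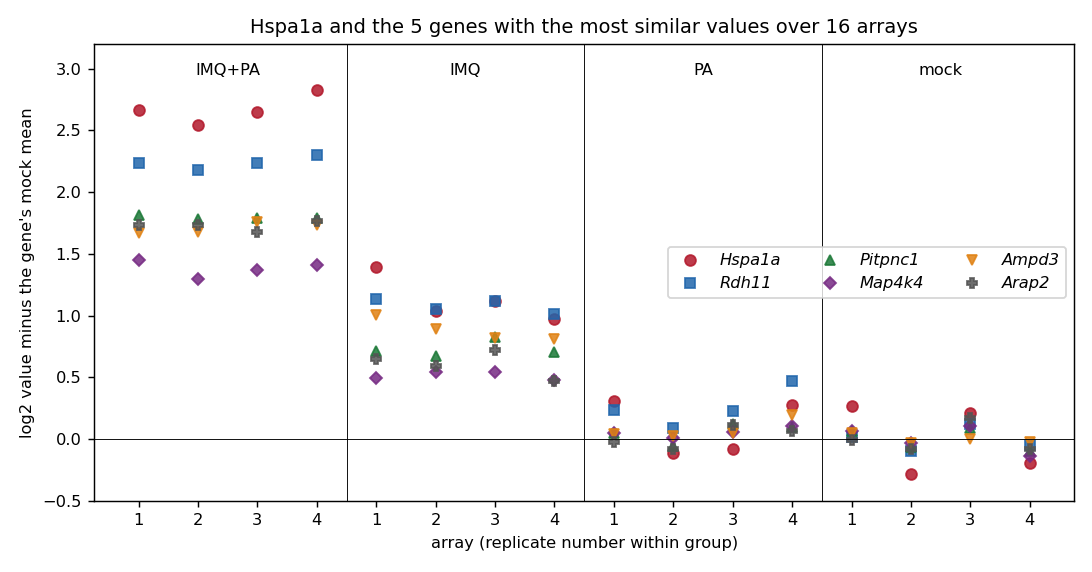
Log2 values of Hspa1a and the 5 genes most like it on each of the 16 arrays, each gene set to 0 at its mock mean, with groups from IMQ with PA on the left to mock on the right. In all 6 genes the arrays with both stimuli are highest and the IMQ arrays next, and the PA and mock arrays are lowest.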

How the data were processed

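The authors deposited log2 values of 41345 probe sets on 16 1-colour Affymetrix arrays, hybridised with 200 ng of RNA per sample, per the labels' protocols. Per the submitters' processing notes, RMA and affy were used, with no version stated. RMA corrects background, normalizes by quantiles and summarises probes. Genome build was not given in the sources used here. Precision is limited by the number of arrays. Probe sets were named from the given platform annotation: 23521 had 1 symbol, 1814 several and 16010 none listed, and for the 1082 genes with more than 1 the highest mean was used. Limma 3.58.1 in R 4.3.3 was fitted to 22180 genes with 4 group means (eBayes, 12 residual and 2.96 prior degrees of freedom, two-sided tests), after a test on simulated data. The log2 values were used as deposited. The members, lists and alternatives were chosen with earlier results of these data known. All measured members were named, as were, per list and contrast, up to 3 called genes in the main direction and 1 in the other. The labels give no batch.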

Additional observations from a re-analysis of the deposited data

Results flagged for a closer look

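Among 32 groups of 4 values (8 genes in 4 groups), 3 held a value far from the other 3 of its group, and chance flags about 1 in 20 groups. Hsph1 read 9.70 in IMQ and PA replicate 2, against at least 9.88 in the other replicates, and 7.89 in mock replicate 2, against at least 8.04 in the others. Hspb1 read 4.94 in IMQ replicate 2, against at most 4.69 in the others, and its mean in every group lay below the dim level of 4.93.

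For 3 genes the change with PA differed between cells with and without IMQ by the interaction test of limma. The difference was 1.44 for Hspa1a, 1.19 for Hsph1 and -0.29 for Hspa9 on the log2 scale, the last not called (-0.34, adjusted p = 0.0659) in a fit with 1 mock and 2 PA arrays.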

How the results depend on the processing

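The 19 calls of the heat shock genes were recomputed under up to 25 alternatives, and 439 of 454 values kept their direction and call, 15 lost the call and 0 turned sign. The 15 fell on Hspa9 (PA minus mock, and the interaction), Hspd1 and Dnajb1 (PA on top of IMQ). With PA minus mock the count of genes called was 1, and 0 with the groups compared fitted alone, with the inflammatory covariate, and without mock replicates 1 to 3 and PA replicates 3 and 4, which leaves 1 mock and 2 PA arrays. The change of Hspa9 was 0.22, 0.23 and 0.28 in these, against 0.22. The first is the same difference of group means and could not move. The last rests on mock replicate 4, the lowest mock array for Hspa9. These sizes are therefore no check on the lost call. With PA on top of IMQ the count of genes called was 5, and 3 with those groups alone. Leaving out 1 array at a time gave 3 to 5 for PA on top of IMQ (3 without IMQ replicate 2), 5 to 6 for IMQ minus mock, and 1 throughout for PA minus mock, 3 for the interaction and 5 for IMQ and PA minus PA.

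The members' values that turned sign were not called in the fit reported; the interaction of Tcp1 was. With probe sets averaged, Hspa8 changed by -0.12 with PA and -0.11 with IMQ over mock, its interaction was 0.18, and those of Hspb1 and Tcp1 were 0.072 and 0.029. The interaction of Hspa8 was 0.045 with repeated quantile normalization and -0.015 to 0.017 with 1 array left out, and that of Hspd1 -0.0037 to 0.054. For Hspb1, PA on top of IMQ gave 0.025 with repeated quantiles, 0.015 with equal medians, 0.086 with probe sets averaged and -0.081 to 0.066 with 1 array left out. IMQ and PA minus PA gave -0.018 with repeated quantiles, -0.024 with equal medians and -0.072 to 0.075 with 1 array left out. The cause was not tested.

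No pairing of the arrays by replicate number was established. Deviations of same-numbered arrays correlated at -0.12 to 0.17, and 7 of 16 correlated best with their own number. Each had 4 candidates, so some such matches arise by chance, and the check cannot exclude pairing. With the replicate block the genes called were 6 for IMQ minus mock (Hspb1 added, adjusted p = 0.0401), against 5 without it, and no other count changed. Members with a run of 3 heat shock units were 2 in the longer window, against 1 upstream of the start. With a variance trend and robust moderation IMQ minus mock had 7 (Hspa8 and Hspb1 added) and IMQ and PA minus PA 6 (Hspa8 added). Of 61 named results from the other lists, which hold chaperones, co-chaperones, heat shock factors, proteases and Atf5, 48 kept their call under every alternative run.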
